A study of Rattus norvegicus with 3 samples.

Results

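The comparison set the library of rats with unilateral anterior crossbite (UAC) and miR-330 AAV against the library of sham rats with Vector AAV, which asks which genes stayed away from the sham level after the treatment. These are 2 of the 3 libraries of the series, told apart by the group in their titles, and within each of them 1 cluster was taken as the skeletal cluster, number 17 with UAC + miR-330 and number 12 with sham. UAC is a model in which an appliance on the teeth changes the bite and overloads the temporomandibular joint (TMJ), the joint of the lower jaw, and AAV is a virus vector, here injected into that joint. Single-cell RNA of condylar cartilage and subchondral bone of wild-type SD rats was read by 3′ sequencing. The sham library came from rats without UAC that received Vector AAV, the UAC library from rats with UAC and Vector AAV, and the UAC + miR-330 library from rats with UAC and miR-330 AAV. The titles do not name the AAV, and which UAC library had received miR-330 AAV was read from the titles together with the series design. On that reading all 3 groups had an AAV injection. Each library pooled 16 condyles, so there was 1 library per condition, rats of a pool cannot be told apart, and no difference has a replicate check. The promoter of the vector and the age of the rats were not given in the sources used here, and the amount of miR-330 in the tissue was not analysed here.

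Cartilage is built by chondrocytes, which lay down type II, IX and XI collagen fibrils and proteoglycans, and its surface is kept smooth by lubricin, the product of Prg4. Deep chondrocytes enlarge, make type X collagen and are replaced by bone, whose matrix is mostly type I collagen with mineral-binding proteins. MicroRNAs such as miR-330 pair by a short seed with messenger RNAs and lower their level or translation.

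The sham library held 77668015 UMIs (unique molecular identifiers, 1 for each RNA molecule captured) in 15 clusters, the UAC library 92629658 in 18 and the UAC + miR-330 library 97255383 in 19. Levels are UMIs per 1000000 UMIs of the library or cluster (CPM). Where 3 values stand together, their order is sham, UAC and UAC + miR-330, and a log2 ratio is that of UAC + miR-330 to sham unless UAC is named. The UAC library is printed beside the other 2, and its ratio shares the sham library. A gene is said to have risen or fallen if the 2 libraries held at least 50 UMIs of it together, its ratio was at least 2-fold and the Poisson 95% intervals of its levels did not overlap. All intervals cover counting error only. The labels give the cells as chondrocytes and osteoclasts, but the summed levels of late neutrophil markers and of B cell markers were above theirs in every library. The summed level of late neutrophil markers was 41399, 64032 and 45037 CPM and that of B cell markers 10368, 9297 and 11781 CPM. Chondrocyte markers summed to 7543, 3343 and 4078 CPM and osteoclast markers to 323, 325 and 294 CPM. The skeletal cluster held 11.6%, 6.46% and 6.05% of the UMIs, with counting intervals under 0.01 percentage points to either side, so the share after miR-330 AAV lay near that of the UAC library and not near sham.

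Over the whole library, the lowest list median was that of small leucine-rich proteoglycans and the highest that of T and NK cell markers. Of 14376 genes with at least 50 UMIs, 795 rose (5.53%) and 352 fell (2.45%). The median log2 ratio of all genes was 0.14, and list medians are given after subtracting it, while ratios of single genes are not shifted. With the median set to 0 the counts became 591 higher and 510 lower, so the share of rises among called genes went from 69.3% to 53.7%. On the scale of the deposited mean counts, 2800 genes were higher and 74 lower (97.4% higher). For the library this scale only adds the same constant to every ratio of summed UMIs, and it put the all-gene median at 0.57. It is what library results on the deposited mean counts refer to below. Ribosomal protein genes made up 13.2%, 11.9% and 10.04% of UMIs and mitochondrial genes 5.32%, 4.97% and 4.91%. Before subtraction of the all-gene median, the median log2 ratio was 0.59 for 20 mitochondrial genes, of which 6 rose, and −0.39 for 83 ribosomal protein genes. With these, haemoglobin and immunoglobulin genes left out of the totals, 695 genes were higher and 416 lower, and the part of RNA quality was not tested. Of the 352 genes that fell, 224 (63.6%) had over 50% of their UMIs in the skeletal clusters, against 15 of the 795 that rose (1.89%) and 8.63% of all genes. The clusters were those of the libraries compared, so these shares are partly fixed by the changes themselves. Without the skeletal cluster in either library 883 genes rose and 191 fell (82.2% higher), and list medians that had been below the all-gene median lay above it for hypertrophy and mineralization (0.043), proteases and inhibitors (0.066), TGF-β and BMP (0.19), endothelial markers (1.54) and the study's own genes (0.074). In sums over a library, fewer cells of a type and less RNA per cell cannot be told apart.

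Small leucine-rich proteoglycans, which bind collagen fibrils, had the lowest median of the lists, −1.39, and 6 of 8 fell. Bgn, biglycan, was at 1173 CPM (1165 to 1180.3), 457 (452 to 461) and 343 (339.5 to 347), a log2 ratio of −1.77 beside −1.36 in the UAC library. Aspn, asporin, had 19.1, 19.8 and 5.81 CPM, so it was near sham in the UAC library and fell with miR-330 AAV. Of 29 genes of fibrous collagens and elastic fibres 13 fell and 2 rose, with a median of −0.63, which became −0.10 without the skeletal cluster. Col1a2 (ENSRNOG00000011292) had 279.8 CPM (276 to 284), 127 (125 to 129.6) and 73.7 (72.0 to 75.4) and a log2 ratio of −1.92, against −1.14 for UAC. Col1a1 had 6848, 3096 and 3064 CPM, and its ratios were −1.16 and −1.15. Col3a1, type III collagen, fell by 1.43 on the log2 scale, and Efemp1, an elastic fibre protein, went from 51 to 23 UMIs. Col14a1, a collagen that coats other fibrils, and Col4a2, a basement membrane collagen, rose, at log2 ratios of 1.09 and 1.86.

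Matricellular proteins, which act on cells from the matrix, had 7 falls and 1 rise among 21 genes, median −0.78. Comp, the cartilage oligomeric matrix protein, had 797, 398 and 287 CPM, and Thbs3 fell by 1.47 on the log2 scale. Thbs1, thrombospondin 1, was the rise, at 3.45, 4.56 and 12.6 CPM, and its log2 ratio was 1.87 beside 0.40 for UAC. Of 32 cartilage matrix genes 6 fell and 1 rose, median −0.46. Snorc, a chondrocyte membrane proteoglycan, had 806, 293 and 351 CPM, and Chadl, a chondroadherin relative, 3.42, 1.37 and 1.03 CPM. Col11a1 had 738, 380.0 and 648 CPM, a log2 ratio of −0.19 beside −0.96 in the UAC library. The rise was Prg4, at 108, 342 and 744 UMIs and a log2 ratio of 2.45 (counting interval 2.17 to 2.76). Hypertrophy and mineralization genes had 4 falls and 1 rise of 26, median −0.46. Bglap, osteocalcin, had 1142, 660.1 and 473 CPM, and Ihh, the hedgehog ligand of prehypertrophic chondrocytes, 15.5, 3.94 and 6.33 CPM. Mepe, an osteocyte matrix protein, rose, with 5, 72 and 87 UMIs.

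Proteases and their inhibitors had 8 falls and 1 rise among 29 genes, median −0.31. Mmp2 and Mmp23, metalloproteinases, fell by 1.49 and 1.89 on the log2 scale, Htra1, a serine protease, by 1.41, and Plau, urokinase, rose from 27 to 89 UMIs. Among FGF, Wnt and hedgehog genes 4 of 33 fell and 2 rose, median −0.39. Wif1 and Frzb, secreted Wnt inhibitors, had log2 ratios of −1.11 and −1.10, and Fgfr3, an FGF receptor of growth cartilage, of 1.33. TGF-β and BMP genes had 2 rises and 3 falls of 34 and a median of −0.18. Ltbp1, which holds TGF-β in the matrix, rose, at 17.7, 28.05 and 55.8 CPM, and Nog, the BMP antagonist noggin, fell from 129 to 79 UMIs. Glycolysis and HIF genes had 4 falls and 1 rise of 34, median −0.25, with Bnip3 at −1.08 and Pkm, pyruvate kinase, at 1.16. Without the skeletal cluster the median became −0.036, and Bnip3 (−0.24), Tpi1 (−0.88) and Aldoc (0.19) were no longer called. Apoptosis and senescence genes had 3 falls and 1 rise of 33, median −0.20. Bcl2, which blocks apoptosis, rose, at 1.33, and Igfbp7 fell, at −1.47. In the osteoclast axis 2 of 21 genes fell and 1 rose, median 0.19. Atp6v0d2, a proton pump subunit of osteoclasts, had 72, 92 and 13 UMIs, and Car2, carbonic anhydrase 2, had 75.5, 125 and 153 CPM. With miR-330 AAV 90.6% of Car2 UMIs lay in cluster 11, where the erythroid genes Car1, Pklr and Gfi1b were among the leading genes. That cluster had erythroid markers at 4458 CPM and B cell markers at 7047 CPM. The part of erythroid cells in the rise of Car2 was not tested.

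Of T and NK cell markers 7 of 12 rose, with the highest median, 1.05. Cd3e, a T cell receptor chain, had 3.27, 14.6 and 11.3 CPM, and Klrd1, an NK receptor, 1.51, 9.53 and 6.59 CPM. Both were highest in the UAC library. Of the 15 largest rises with at least 100 UMIs, Klra22, Gzma, Ly49s6 and Styk1 had most of their UMIs in cluster 19 with miR-330 AAV. Cxcr5, the chemokine receptor of B cell follicles, was at 0.734, 6.27 and 10.4 CPM and Lax1, a lymphocyte adaptor, at 4.39, 31.2 and 44.2 CPM. With miR-330 AAV 83.3% and 75.6% of their UMIs lay in cluster 8, which had dendritic markers at 20430 CPM and B cell markers at 5573 CPM. The dendritic list includes Cd74 and MHC class II genes, and the MHC class II list summed to 20941 CPM in that cluster. The other 9 carry contig names and had most of their UMIs in cluster 5, led by AABR07065811.1 with 4, 11 and 1373 UMIs. That cluster had erythroid markers at 69636 CPM and plasma cell markers at 3919 CPM, and the source of these transcripts was not tested. Genes with near-identical copies, such as the Ly49 receptors, defensins, globins and MHC genes, are uncertain because the counting could split their reads. In the UAC + miR-330 library, 240 (30.2%) of all 795 rises had the most UMIs in cluster 11, 127 (16.0%) in cluster 19 and 96 (12.1%) in cluster 10. Of all 14376 genes, 7280 (50.6%), 239 (1.66%) and 861 (5.99%) did. Since that library is part of the comparison, these shares are partly fixed by the rises themselves, and nothing is concluded from them.

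Plasma cell markers had 3 rises of 6 and a median of 0.91, with Jchain, the joining chain of IgA and IgM, at 40.3, 56.4 and 94.2 CPM. Erythroid markers had 5 of 13, median 0.70, and Hbb, β-globin, was below sham in the UAC library and above it with miR-330 AAV, at 32.1, 10.2 and 84.2 CPM. Primary granule markers of early neutrophils had 3 of 10, median 0.49. Prtn3, proteinase 3, had 6.99, 17.5 and 27.9 CPM and Elane, neutrophil elastase, 21.4, 44.6 and 66.8 CPM. Late neutrophil markers had 1 rise of 12, median 0.15. Dendritic markers had 2 of 10, median 0.68, and MHC class II genes 3 of 10, median 0.44. Mast and basophil markers had 3 rises and 1 fall of 11, median 0.34. B cell markers had 0 calls of 13, median −0.002, macrophage markers 0 of 12, median 0.017, endothelial markers 0 of 9, median −0.61, and megakaryocyte markers 0 of 3, median −0.50. Osteoclast markers had 2 falls of 9, median 0.078, and muscle markers 1 fall of 3, median −0.50. Chondrocyte, osteogenic and fibroblast markers had 5 falls and 1 rise of 17, 2 and 1 of 11 and 5 and 0 of 11, with medians of −0.82, −0.73 and −1.08. The part of these cell types in the gene changes of the whole library was not tested.

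Chemokine genes had 8 rises and 1 fall of 26, median 0.043, which became −0.10 without the skeletal cluster. Cxcl10, which attracts T cells, rose, at 1.45, 9.50 and 11.7 CPM. With miR-330 AAV most Cxcl10 UMIs, 924, lay in cluster 5, the cluster of the contig genes, and their source was not tested. Ccl12 had 1, 14 and 73 UMIs, a log2 ratio of 5.29 (counting interval 3.34 to 11.19). Inflammation and NF-κB genes had 3 rises and 3 falls of 38, median 0.15. Nos2, inducible nitric oxide synthase, had 20.2, 45.1 and 56.5 CPM and Tnfaip3, a brake on NF-κB, 13.1, 20.7 and 31.7 CPM, both further from sham than in the UAC library. Il6 fell, with 59, 75 and 24 UMIs, and Vcam1, an adhesion molecule, had 8.15, 1.38 and 3.55 CPM. Angiogenesis genes had 4 rises of 25, median 0.025, among them Angpt1 at 10.6, 22.2 and 32.6 CPM and Vegfc at 0.464, 1.18 and 2.02 CPM. Immediate early genes had 3 rises of 27, median 0.18, with Egr3 at 1.95. Heat shock genes had 1 rise and 2 falls of 23, median 0.13, with Hspb1 at −1.36. Interferon-stimulated genes had 1 rise of 28, median 0.16, mechanosensors and adhesion genes 2 of 26, median 0.002, and cell cycle genes 0 calls of 35, median −0.22.

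Beside matrix genes, the 15 largest falls held Stfa2l1, a stefin, with 144, 25 and 19 UMIs, and Epx, eosinophil peroxidase, with 664, 356 and 99 UMIs. Gpd1, glycerol-3-phosphate dehydrogenase, had 3.48, 0.130 and 0.442 CPM, Gdf15, a stress-induced cytokine, 9.81, 6.95 and 2.09 CPM, and Spic, a transcription factor of iron-recycling macrophages, 4.36, 1.49 and 1.08 CPM. All 3 had most of their UMIs in sham cluster 15 and UAC + miR-330 cluster 10. Pcp4l1 was above sham in the UAC library and below it with miR-330 AAV, at 40.9, 71.04 and 7.88 CPM. Of the genes nearest to the 2-fold limit, Cd84 at 1.001 and Maged1 at −1.0 were inside it, and Tmem94 at 0.9994 and Arhgef19 at −0.9999 outside.

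In the skeletal cluster fewer genes fell than over the whole library, and Prg4, Col9a3 and Matn3 of the cartilage matrix list rose. Of 10012 genes with at least 50 UMIs, 420 rose (4.19%) and 86 fell (0.859%), and the all-gene median was 0.15. With this median set to 0 the counts were 253 and 146, so the share of rises went from 83.0% to 63.4%, and on the deposited mean counts, with a median of 0.58, they were 1937 and 29 (98.5%). With a minimum of 200 UMIs 174 genes were higher and 14 lower, and with 10 UMIs 558 and 148. The cluster carried the label's cell type, with 18 of 20 chondrocyte markers at least 2-fold higher in cluster 17 than in the rest of its library, and 17 in sham cluster 12. So did 11 and 10 of 11 osteogenic markers and 10 and 9 of 12 fibroblast markers, so chondrocytes, bone-forming cells and fibroblasts stand together in it and a change of their proportions cannot be told apart from a change within cells. Chondrocyte markers summed to 63209.9, 50309 and 64942 CPM, osteogenic markers to 12813, 12519 and 11822 CPM and fibroblast markers to 67791, 56758 and 56483 CPM. Since the tables used here come from clustering every library separately, the clusters may not hold the same cells. The UAC value is from cluster 16, taken because it had the highest level of chondrocyte markers. Of the rises 172 (40.95%) and of the falls 15 (17.4%) were genes at least 2-fold higher in the skeletal cluster than in the rest of the UAC library, which is not part of the comparison, against 26.4% of all genes tested.

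**Figure D1:**
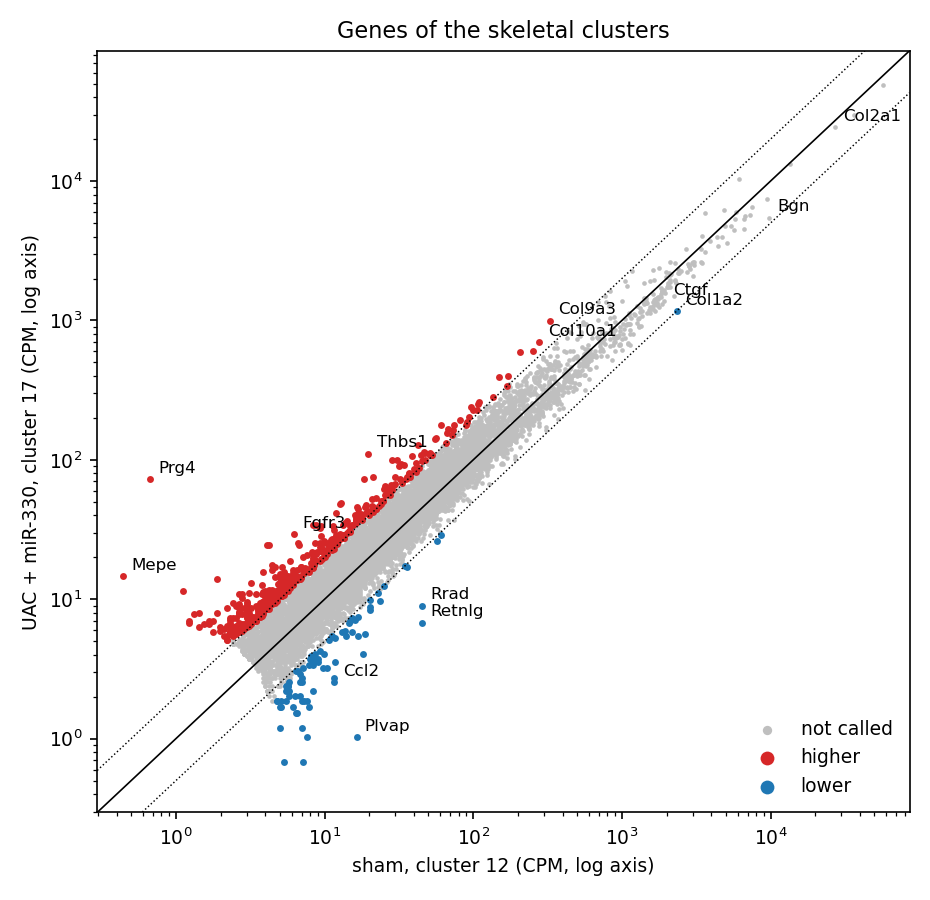
Level of each gene in the skeletal cluster of the sham library (x axis) and of the UAC + miR-330 library (y axis), both in CPM on log axes, for 10008 of 10012 genes, without the 4 that had 0 UMIs in 1 library. The solid line marks equal levels and the dotted lines 2-fold. Red points are the genes that rose and blue points those that fell, with Prg4 far above the line and Col2a1 near it.

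Of 32 cartilage matrix genes 3 rose and 0 fell in the skeletal cluster, where 0 falls is near the 0.859% of all genes, and the median was 0.27. Prg4 (ENSRNOG00000002385), lubricin, had the largest rise, with 6, 23 and 429 UMIs, which is 0.665 CPM (0.244 to 1.45), 3.85 (2.44 to 5.77) and 72.9 (66.2 to 80.1). Its log2 ratio was 6.66 (counting interval 5.64 to 8.23), beside 2.45 for the UAC library. In the sham library 74 of 108 Prg4 UMIs lay in cluster 15, and in the UAC library 267 of 342 in cluster 9. In the UAC + miR-330 library 273 of 744 lay in cluster 10 beside the 429 of the skeletal cluster, so Prg4 was found mainly in 2 clusters there. Col9a3, a chain of type IX collagen, rose, at 329 CPM (317 to 341), 439 (423 to 457) and 999 (974 to 1025), as did Matn3, matrilin 3, at 46.3, 53.3 and 113 CPM. Col2a1 was at 27179.7 CPM (27072 to 27288), 19379 (19268 to 19491) and 24344 (24218 to 24471), a log2 ratio of −0.16, closer to sham than the −0.49 of the UAC library. Snorc had −0.26 beside −0.62, and Col11a1 had 0.75 beside −0.11, which is above sham.

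Hypertrophy and mineralization genes had 4 rises and 0 falls of 26, median 0.16. Col10a1, type X collagen of hypertrophic chondrocytes, was at 279 CPM (268 to 290.2), 232 (219.9 to 244) and 699 (678 to 721), a log2 ratio of 1.32 (counting interval 1.25 to 1.40) that had been −0.27 for UAC. Sp7, osterix, a transcription factor of osteoblasts, had 30, 25 and 44 UMIs and Mepe 4, 68 and 86 UMIs. Phex, an osteocyte peptidase, rose, with 55, 23 and 75 UMIs, and 3 of 11 osteogenic markers rose in all, median 0.17. With the all-gene median set to 0 Phex was at 0.91, short of 2-fold. Bglap was at 9537, 9876 and 7393 CPM, a log2 ratio of −0.37, and Mef2c, a transcription factor of hypertrophy, at 0.98.

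Fibrous collagens and elastic fibre genes split, with 6 rises and 2 falls of 28 and a median of −0.22. Col1a2 fell just past 2-fold, at 2348 CPM (2317 to 2380.1), 1927 (1892 to 1963) and 1173 (1146 to 1201), and Col1a1 was at 57395, 46960.0 and 49062 CPM, a log2 ratio of −0.23. Col5a1, a collagen that starts fibrils, rose, at 148, 176 and 394 CPM, as did Col14a1, at 8.76, 24.7 and 34.2 CPM. Col18a1, the basement membrane collagen that yields endostatin, fell, with 65, 7 and 4 UMIs, and Col4a2 rose, with 16, 14 and 41 UMIs. Small leucine-rich proteoglycans had 0 calls of 8 here, median −0.46, and Bgn was at 9737 CPM (9673 to 9802), 6837 (6771 to 6903) and 5469 (5409 to 5529), a log2 ratio of −0.83 beside −0.51 for UAC. Matricellular genes had 3 rises and 0 falls of 20, median 0.10, which became −0.071 with a minimum of 200 UMIs. Thbs1 (ENSRNOG00000045829) was at 19.7 CPM (16.9 to 22.9), 24.1 (20.3 to 28.3) and 111 (102 to 119.6). Its log2 ratio was 2.49 (counting interval 2.25 to 2.74), beside 0.29 for UAC, where the intervals overlapped with sham. In the clusters highest in macrophage markers, Thbs1 was at 17.7 (sham cluster 15), 37.7 (UAC cluster 9) and 69.5 CPM (UAC + miR-330 cluster 10). The last held 416 of the 1229 Thbs1 UMIs of its library, so the rise was not confined to the skeletal cluster. Nov, of the family of Ctgf, had 36, 54 and 68 UMIs and Spon1, spondin 1, 49, 17 and 82 UMIs. Comp was at 6586, 5925 and 4508 CPM, a log2 ratio of −0.55.

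**Figure D2:**
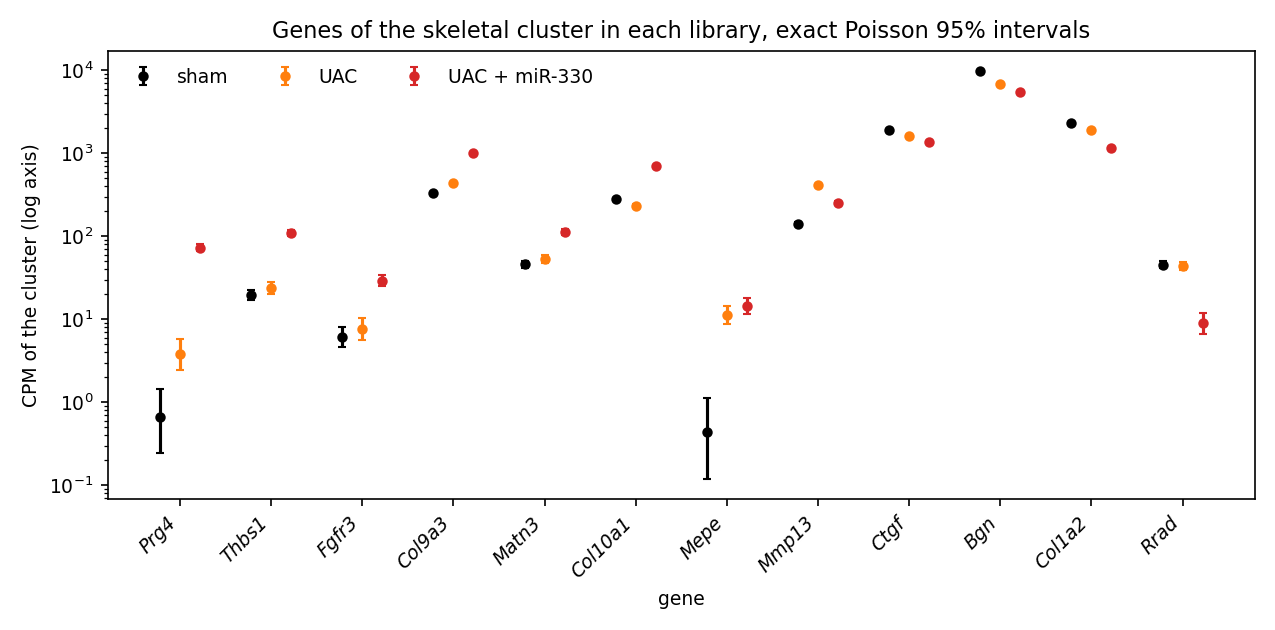
Level of 12 named genes in the skeletal cluster of each of the 3 libraries, in CPM on a log axis, where points are the 1 library of each condition and bars the exact Poisson 95% interval. Prg4 was higher with miR-330 AAV than in the other 2 libraries, at 72.9 CPM, and Rrad was lower, at 9.01 CPM.

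Of 30 FGF, Wnt and hedgehog genes 4 rose and 0 fell, median −0.006, which became 0.22 with a minimum of 10 UMIs. Fgfr3, which restrains chondrocyte growth, was at 6.21 CPM (4.69 to 8.06), 7.69 (5.63 to 10.3) and 29.2 (25.02 to 33.9), a log2 ratio of 2.23 (counting interval 1.79 to 2.70) beside 0.31 for UAC. Sfrp2 and Sfrp4, secreted Wnt regulators, had 10, 29 and 67 UMIs and 128, 147 and 213 UMIs. Proteases and inhibitors had 4 rises and 1 fall of 24, median −0.20, which became 0.14 with a minimum of 10 UMIs. Adamts5, an aggrecanase, had 8.43, 13.4 and 20.9 CPM and Adamts9 7.21, 9.20 and 20.1 CPM, while Timp3, an inhibitor of such enzymes, had 108, 167 and 253 CPM. Mmp9 fell, with 104, 117 and 16 UMIs, and is also a marker of neutrophils and osteoclasts. TGF-β and BMP genes had 1 rise of 31, Bmp5 at 36, 37 and 54 UMIs, median 0.15, and mechanosensors and adhesion genes 1 of 23, the collagen receptor Itga1 at 29.8, 27.3 and 66.6 CPM, median 0.16. Glycolysis and HIF genes had 3 rises of 34, median −0.17, with Pkm at 61.1, 74.2 and 178 CPM and Hk1, hexokinase 1, at 19.7, 29.1 and 42.6 CPM. The other genes of the 15 largest rises included Slc1a3, a glutamate transporter, with 38, 56 and 145 UMIs, and Loxl4, a collagen cross-linking oxidase, with 40, 70 and 103 UMIs.

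Among 32 cell cycle genes 5 rose and 1 fell, although the median was −0.55. Cenpf, a kinetochore protein of mitosis, was at 18.3, 91.3 and 73.1 CPM and Mki67, a proliferation marker, at 18.8, 55.2 and 45.9 CPM, and both were highest in the UAC library. Of their UMIs in the sham and UAC + miR-330 libraries, 1.54% and 2.18% lay in the skeletal cluster for Cenpf and 0.861% and 0.592% for Mki67. Mcm3, a replication factor, had 69, 34 and 11 UMIs and Pcna a log2 ratio of −0.83, so the list did not move one way. Immediate early genes had 1 rise and 1 fall of 26, median −0.45. Fos was at 819, 1256 and 1264 CPM and Jund at 1137, 1127 and 669 CPM, on either side of sham, and Egr2 fell, with 57, 36 and 12 UMIs. Apoptosis and senescence genes had 1 rise and 1 fall of 28, median −0.22, Cdkn2b with 22, 21 and 37 UMIs and Igfbp3 with 48, 13 and 4 UMIs. Heat shock genes had 1 rise of 23, median 0.085, which became −0.20 among genes higher in the cluster than in the rest of the UAC library, an alternative chosen after seeing the data.

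Among genes with at least 100 UMIs that are not markers of other cells, the largest fall was Rrad, a GTPase that inhibits calcium channels, at 45.5 CPM (41.2 to 50.1), 44.1 (38.98 to 49.8) and 9.01 (6.75 to 11.8), a log2 ratio of −2.32 (counting interval −2.78 to −1.92) beside −0.041 for UAC. Ccl2, the monocyte chemokine, followed with 105, 161 and 15 UMIs, above sham in the UAC library and below it with miR-330 AAV, but only 2.78% and 0.543% of its UMIs in the sham and UAC + miR-330 libraries lay in the skeletal cluster. Chemokine genes had 1 rise and 2 falls among only 6 with enough UMIs, median −0.86. Cxcl14 rose, at 11.97, 28.1 and 41.8 CPM, and Ccl3 fell, with 64, 41 and 11 UMIs. Inflammation and NF-κB genes had 0 calls of 27, median 0.024, and Nfkbia, the NF-κB inhibitor, was at 220.4, 365 and 191 CPM. Interferon-stimulated genes had 1 rise and 1 fall of 6, median −0.057, the fall being Bst2, tetherin, at 18.2, 8.86 and 4.08 CPM. MHC class II genes had 0 calls of 5, median 0.016, and the osteoclast axis 0 of 12, median 0.14. Apoe, Slpi, G0s2 and Ptprcap were also among the 15 largest falls. All of these 15 except Rrad had the most UMIs in another cluster of both libraries, and the highest share in the skeletal cluster was that of Klf16, 8.14% and 2.69%. At the 2-fold limit, Fosl2 at 1.001 and Col1a2 at −1.001 were inside, and Ccdc66 at 0.9981 and Tnfrsf12a at −0.9994 outside.

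Markers of other cells in the skeletal cluster made up 9 of the 86 falls (10.5%) and 2 of the 420 rises (0.476%), against 49 of 10012 genes tested (0.489%), so their share of the rises was near that of all genes. Endothelial markers fell most, 4 of 6, median −5.25, or −3.95 with genes at 0 UMIs set to the bound that 3 counts allow. Their sum was 105, 40.5 and 28.04 CPM, the most abundant gene was Ramp2, and 0, 4 and 6 of 9 were at 0. Emcn, endomucin of capillary endothelium, had 158, 0 and 0 UMIs, so it was at least 34.4-fold lower, and Cdh5, the cadherin of vessels, had 60, 0 and 0 UMIs, at least 13.1-fold lower. Flt1, a VEGF receptor, had 87, 2 and 0 UMIs, at least 18.9-fold lower, and Plvap 148, 8 and 6 UMIs. Over the whole library, 0 endothelial markers were called, and 108 of the 121 Emcn UMIs of the UAC + miR-330 library lay in cluster 14, so most of these transcripts were assigned to another cluster there. Emcn, Cdh5 and Flt1 belong also to the angiogenesis list, which had 3 rises, Thbs1, Angpt1 and Nrp1, and 4 falls of 19, median 0.11, which became −0.91 with a minimum of 10 UMIs.

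Late neutrophil markers in the skeletal cluster summed to 1264, 4404 and 871 CPM, with 2 falls of 9, median −0.77. The most abundant was S100a9 in the sham and S100a8 in the UAC + miR-330 cluster, and Retnlg had 410, 220 and 40 UMIs. Primary granule markers summed to 109.5, 1844 and 159.9 CPM, with 1 rise of 5, RatNP-3b, which was also the most abundant, median 0.38. Both neutrophil sums were closer to sham than to the UAC library. Of the late markers 1, 0 and 1 of 12 were at 0, and of the primary granule markers 2, 1 and 2 of 11. B cell markers summed to 439.9, 409 and 287 CPM, led by Ebf1, with 2 falls of 9, Igll1 and Rag1, a median of −1.05 and 1, 0 and 1 of 14 at 0. Plasma cell markers had 1 rise and 1 fall of 3, median 0.32, and summed to 35.4, 48.5 and 52.5 CPM, led by Xbp1. Muscle markers summed to 133, 33.6 and 91.6 CPM, led by Tnni2, with 0 calls of 2 and a median of −0.69. Osteoclast markers summed to 398, 506 and 420.4 CPM, with 1 fall of 6, Mmp9, median −0.029, and 5 of 12 at 0 in each library. Erythroid markers summed to 63.9, 38.3 and 68.1 CPM, led by Hba-a1, and dendritic markers to 95.5, 139.8 and 117 CPM, led by Cd74. T and NK cell markers, led by Klrb1a, summed to 17.4, 29.6 and 12.1 CPM and mast and basophil markers to 5.43, 11.04 and 8.84 CPM. These 4 lists had 0 calls, of 2, 4, 1 and 1 genes with enough UMIs, and their medians were −0.085, 0.20, −0.74 and 0.31. No megakaryocyte marker had enough UMIs. Chondrocyte markers had 3 rises of 17, median 0.10, and fibroblast markers 1 fall of 10, median −0.31. The part of other cell types in the changes of the skeletal cluster was not tested.

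**Figure D3:**
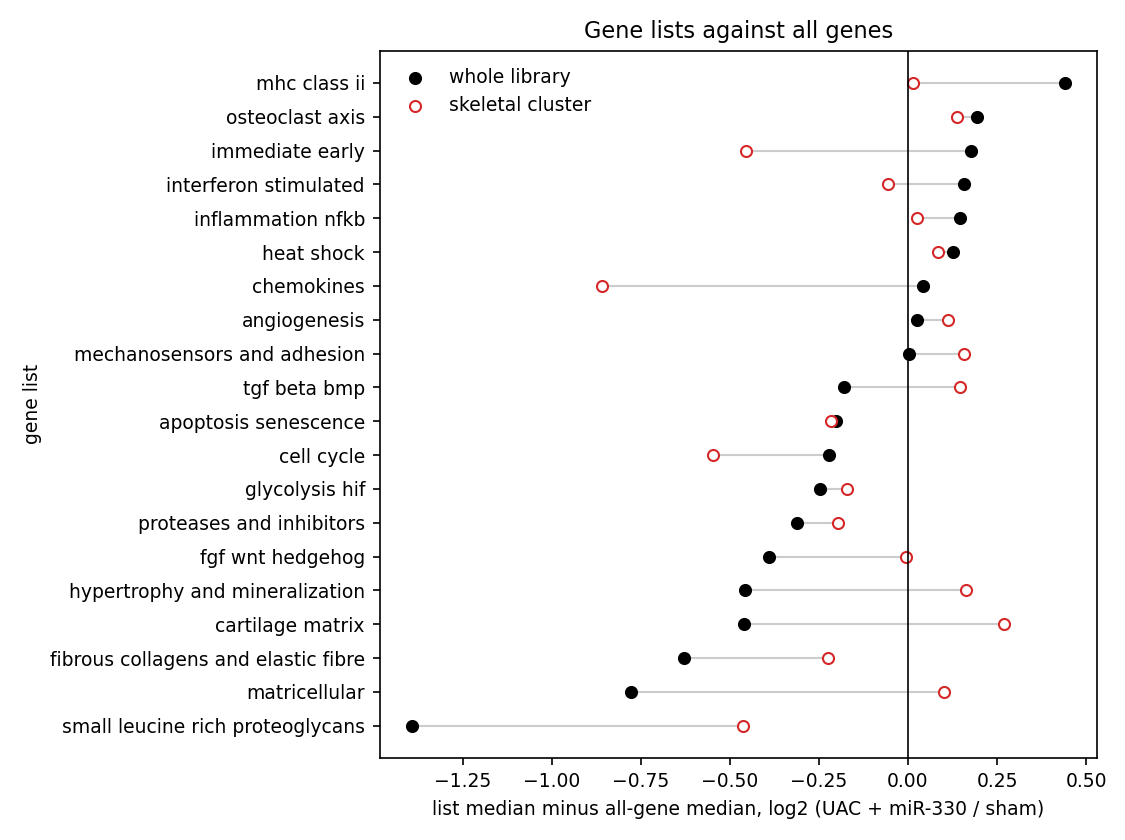
Median log2 ratio of UAC + miR-330 to sham of 20 gene lists, minus the all-gene median (x axis), over the whole library (black) and in the skeletal cluster (open red), with 1 line per list (y axis). The small leucine-rich proteoglycans lay lowest over the whole library, at −1.39, and at −0.46 in the skeletal cluster.

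A further list holds the genes named in the study as targets or readouts of miR-330. Over the whole library 3 of 7 genes of this list fell, against 2.45% of all genes. In the skeletal cluster 0 of 6 fell, near the 0.859% of all genes, so 0 falls there is not particular to this list. The list medians were −0.26 and −0.34. After miR-330 AAV the paper reports more COL2A1 protein and less CTGF, FGFR1 and MMP13. Both medians therefore pool genes with opposite reported directions. Ctgf (ENSRNOG00000015036), a matricellular growth factor, fell over the whole library, at 232 CPM (229 to 235), 108 (106 to 110.2) and 87.5 (85.6 to 89.3), a log2 ratio of −1.41 beside −1.10 for UAC. In the skeletal cluster Ctgf was at 1930.4 CPM (1902 to 1959), 1601 (1569 to 1633) and 1379.7 (1349.9 to 1410.1), a log2 ratio of −0.48, below sham but short of 2-fold. Fgfr1, an FGF receptor, had a log2 ratio of −0.13 over the library and of 0.64 in the cluster, where its level was 145, 144 and 225 CPM. Epor, the erythropoietin receptor, had 2.33, 2.43 and 3.40 CPM over the library and 2, 1 and 1 UMIs in the skeletal clusters, too few for a ratio. Il1b had 89.2, 147 and 111 CPM over the library, and in the cluster 48, 45 and 17 UMIs. Col2a1 fell over the library, at 3209.9, 1273 and 1519.8 CPM and a log2 ratio of −1.08 beside −1.33. Ctsk, cathepsin K, fell as well, at 23.9, 19.5 and 11.6 CPM, and was at 177, 260.2 and 153 CPM in the skeletal cluster. On the deposited mean counts, where every gene shifts alike, the library ratios of Ctgf, Col2a1 and Ctsk were −0.98, −0.65 and −0.61, short of 2-fold, which is not particular to these 3 genes. Without the skeletal cluster Col2a1 and Ctsk were also short of it, at −0.28 and −0.60. Mmp13, collagenase 3, was at 16.8, 27.3 and 16.1 CPM over the library, where the intervals of sham and miR-330 AAV overlapped, and at 140.2, 411 and 251 CPM in the cluster, between sham and UAC. Mmp3, stromelysin 1, had 4, 24 and 32 UMIs over the library, together under the minimum of 50, which is 0.0515, 0.259 and 0.329 CPM.

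The mature strands of rat miR-330 are shown because their seeds, bases 2 to 8 in capitals, set which messages the miRNA can pair with. They come from RefSeq (GRCr8) and lie on the plus strand, the 5p arm at chr1:87961227-87961248 and the 3p arm at chr1:87961266-87961288. The seed of the 5p arm is shared with rno-miR-326-3p, and that of the 3p arm with no other miRNA of the table. Which strand the vector delivered was not analysed here.
rno-miR-330-5p: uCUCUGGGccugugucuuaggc
rno-miR-330-3p: gCAAAGCAcagggccugcagaga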

How the data were processed

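The deposited tables of single-cell 3′ RNA hold clusters made within each of 3 pooled libraries, with Cell Ranger 7.0 per the submitters' processing notes, which also name STAR and Seurat 4.0.1. The deposited mean counts of a cluster are a signal scaled within each cluster, in steps worth 1 UMI. The authors' log2 fold changes and adjusted p-values, also deposited, set a cluster against the rest of its library, and neither was used. The notes name human and mouse genome builds while the identifiers are of rat, so the build of the tables is not given in the sources used here.

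Each mean was divided by the smallest positive mean of its column, which gave whole UMIs for 100% of values (tolerance 1e-06, largest distance 1.04e-07), and UMIs were summed over clusters. UMIs of a name on several identifiers were added. Levels are CPM with exact Poisson 95% intervals, shares have exact binomial 95% intervals, and ratios were taken after adding 0.5 UMI, with intervals of the ratio from the binomial distribution of the 2 counts. A gene was called at 50 UMIs or more in the 2 libraries together, a ratio of 2-fold or more and intervals apart. No test between conditions and no p-value was computed, because each condition had 1 library. The procedure was checked on counts simulated from the sham library with Poisson error only. These hold no differences between libraries, so the check cannot show how many calls between real libraries are false. Doublets and free RNA in the droplets were not treated, and cells cannot be counted from cluster sums.

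Genes are named if they were among the 15 largest rises or falls with at least 100 UMIs and intervals apart, leaving out genes of haemoglobin, immunoglobulin, ribosomal proteins and mitochondria and, in the skeletal cluster, markers of blood, immune, muscle and endothelial cells. Others are the 3 members of a list with the most UMIs and its 3 largest called changes each way, and the study's genes. Genes nearest to the 2-fold limit were chosen after their values were seen. The members and the 37 lists (21 of biology, 16 of markers) were chosen with earlier results of these data known. Lists overlap. Of 719 list genes 679 were matched by name, 6 through RefSeq (GRCr8) and 34 were not matched. The comparison of genes with and without miR-330 seed matches was not run, because no transcripts were used here. Tnf was not analysed here. Python 3.11.15, numpy 2.4.6, pandas 2.3.3, scipy 1.17.1 and matplotlib 3.10.9 were used. Alternatives were other minimums, 5 added UMIs, other scalings and sums without the skeletal cluster.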

Additional observations from a re-analysis of the deposited data

How the results depend on the processing

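Counts of genes and list medians were computed again with other minimums, 5 added UMIs, other scalings and, for the library, without the skeletal cluster. Among list medians, 424 values moved by less than 0.1, some of them across 0. Of the ratios of named genes 2449 kept their direction and call, 85 were no longer called and 26 became called. The sign turned in 4 of these lost or gained calls. The cause of the changes below was not tested, except that fewer or more genes pass another minimum.

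Without the skeletal cluster 191 genes of the library were lower. List medians turned sign for chemokines (−0.10), endothelial markers (1.54), hypertrophy (0.043), proteases (0.066), the study's genes (0.074) and TGF-β and BMP (0.19), and moved by 0.1 or more for angiogenesis (0.50), B cell markers (−0.12), cartilage matrix (−0.31), chondrocyte markers (−0.69), dendritic markers (0.56), erythroid markers (0.58), FGF, Wnt and hedgehog (−0.069), fibroblast markers (−1.20), fibrous collagens (−0.10), glycolysis and HIF (−0.036), immediate early (0.36), interferon (0.046), mast and basophil markers (0.23), matricellular (−1.23), mechanosensors (0.34), MHC class II (0.32), late neutrophil markers (0.036), primary granule markers (0.37), osteoclast markers (0.21), osteogenic markers (−0.10), small leucine-rich proteoglycans (−1.23) and T and NK cell markers (0.94). Log2 ratios turned sign for Aldoc (0.19), Tnfaip6 (0.31), Ltbp3 (0.38) and Plvap (1.14). With the 10 UMI minimum 148 genes of the skeletal cluster were lower, library medians moved for chemokines (0.16), MHC class II (0.30) and proteases (−0.20), and skeletal medians turned sign for angiogenesis (−0.91), FGF, Wnt and hedgehog (0.22) and proteases (0.14) and moved for cell cycle (−0.44), chemokines (−0.47), endothelial markers (−5.92), interferon (−0.50) and MHC class II (0.37). With the 200 UMI minimum 523 genes of the library were higher, and 174 of the cluster were higher and 14 lower. Library medians then moved for endothelial markers (−0.85), hypertrophy (−0.63), mast and basophil markers (0.54) and osteoclast markers (0.19), and skeletal medians for angiogenesis (0.37), cell cycle (−0.22), matricellular (−0.071) and late neutrophil markers (−0.66), of which matricellular turned sign. With 5 UMIs added the skeletal median that moved was that of endothelial markers (−3.30). Deposited mean counts gave 2800 and 74 genes higher and lower in the library and 1937 and 29 in the cluster, where a median of 0 gave 253 and 146. Among genes at least 2-fold higher in the cluster than in the rest of a library, an alternative chosen after seeing the data, 185 were higher and 21 lower, and medians turned sign for heat shock (−0.20) and moved for endothelial markers (−6.45) and immediate early (−0.26). That choice goes through either library compared, so its counts are partly fixed by the changes themselves. Chosen by the UAC library in place of them, also after seeing the data, 172 were higher and 15 lower, and medians turned sign for heat shock (−0.20) and moved for apoptosis senescence (−0.33) and immediate early (−0.26). Leaving out haemoglobin, immunoglobulin, ribosomal protein and mitochondrial genes, the skeletal cluster held 12.05%, 6.59% and 6.13% of UMIs.

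Calls were lost over the library on the deposited mean counts by 25, among them Ctgf, Col2a1, Ctsk, Snorc, Frzb, Wif1, Ihh, Col1a1, Bnip3, Hspb1, Bglap, Vcam1, Htra1, Nog and Tnni2, with the median set to 0 by 9, among them Nrp1, Col14a1, Fosl2, Car2 and Xbp1, and without the skeletal cluster by 17, among them Col2a1, Ctsk, Igfbp7, Wif1, Bnip3, Bglap, Car2, Plau and Tnni2. In the skeletal cluster they were lost on the deposited mean counts by 12, among them Apoe, Klf16, Slpi, Col1a2, Egr2 and Rag1, and with the median set to 0 by 10, among them Nrp1, Hk1, Fosl2, RatNP-3b, Phex and Xbp1.

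The depth of the skeletal cluster, 5885282 UMIs with miR-330 AAV, limits genes with few UMIs, and differences between rats, dissociations and libraries cannot be told apart from the treatment. No paired analysis was possible because each condition had 1 library.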
